A study of Mus musculus with 4 samples.

Results

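Open chromatin around 6 genes of the aryl hydrocarbon receptor pathway was examined in ATAC-seq data, in which a transposase cuts accessible DNA, from primary mouse T-helper 17 (Th17) cells of strain C57BL/6NJ. There was 1 group of 4 biological replicates, all carrying the same donor identifier; sex was not collected and age is given as unknown. Whether the replicates came from separate animals or cultures is not stated, so the spread between them may be partly technical. The genes are Ahr, Arnt, Ahrr, Tiparp, Cyp1a1 and Cyp1b1, taken from the GENCODE M21 annotation of the mm10 build. For Ahr the window ran from the gene body to the nearest other protein-coding transcription start on each side, and for the other 5 genes it was the gene body with 50 kb on each side. These 6 windows held 123, 136, 128 and 124 open regions in replicates 1 to 4, of 83904, 85127, 85293 and 84137 regions in the whole lists. Overlapping regions merged into 155, of 101015 in the genome. A merged region with a member from each replicate is called shared, and 106 of the 155 were shared (68.4%), against 68.0% of all merged regions.

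The aryl hydrocarbon receptor (AHR) is a ligand-activated transcription factor that resides in the cytoplasm with heat shock protein chaperones. On binding a ligand, such as a dietary indole or a dioxin, it enters the nucleus, pairs with ARNT and binds DNA elements with the core TNGCGTG. Its classical targets include Cyp1a1 and Cyp1b1, which encode monooxygenases, and Ahrr and Tiparp, whose products restrain the receptor. In Th17 cells AHR is known for its part in interleukin 22 production.

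The sequences that carry the AHR:ARNT string are shown first, because the results on these promoters turn on them. They were read from the GRCm38.p6 (mm10) reference, not from the cells, and run 5′ to 3′; the Ahrr promoter is credited to the RefSeq promoter table of that build. Capitals mark TNGCGTG on either strand, read as CACGCNA on the other, in the open region upstream of Cyp1a1 (chr9:57696562-57696860, + strand) and in the intergenic region 54.1 kb downstream of the Ahr start (chr12:35480839-35480939, + strand). In the Ahrr promoter (chr13:74292302-74292581, - strand) capitals mark the shorter core GCGTG, which lies inside TNGCGTG.
Cyp1a1 upstream: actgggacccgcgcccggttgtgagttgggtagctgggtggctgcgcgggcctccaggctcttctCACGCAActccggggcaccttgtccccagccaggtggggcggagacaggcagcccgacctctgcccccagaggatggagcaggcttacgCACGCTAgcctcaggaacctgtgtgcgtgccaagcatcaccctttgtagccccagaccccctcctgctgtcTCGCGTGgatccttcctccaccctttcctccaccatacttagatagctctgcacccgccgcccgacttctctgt
Ahr downstream: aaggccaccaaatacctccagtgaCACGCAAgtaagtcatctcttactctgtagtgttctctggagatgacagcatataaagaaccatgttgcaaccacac
Ahrr promoter: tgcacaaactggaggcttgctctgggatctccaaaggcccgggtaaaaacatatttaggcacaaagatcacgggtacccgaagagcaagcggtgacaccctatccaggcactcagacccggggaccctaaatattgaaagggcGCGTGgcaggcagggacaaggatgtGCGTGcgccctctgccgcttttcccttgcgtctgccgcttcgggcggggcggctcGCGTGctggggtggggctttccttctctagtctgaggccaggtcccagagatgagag

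The second set comprises the summits of some strong distal regions, each 101 bases long and on the + strand. Capitals mark TGANTCA, the AP-1 string, in the regions near Ahr (chr12:35553238-35553338), Arnt (chr3:95511941-95512041), Cyp1b1 (chr17:79755076-79755176), Tiparp (chr3:65586460-65586560) and Cyp1a1 (chr9:57704498-57704598). The last pair are the highest-ranking regions of the Ahr window by signal: capitals mark the STAT-type string TTCNNNGAA in the one 264 kb upstream (chr12:35799394-35799494) and the RUNX-type string TGTGGT, as its reverse complement, in the one 106 kb upstream (chr12:35641139-35641239). A match describes the letters only and is not a measured binding site.
Ahr 18.2 kb upstream: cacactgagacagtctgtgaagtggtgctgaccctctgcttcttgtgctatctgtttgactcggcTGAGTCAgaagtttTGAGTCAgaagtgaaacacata
Arnt 77.6 kb downstream: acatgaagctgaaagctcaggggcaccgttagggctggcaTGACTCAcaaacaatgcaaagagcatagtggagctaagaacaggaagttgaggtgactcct
Cyp1b1 40.1 kb upstream: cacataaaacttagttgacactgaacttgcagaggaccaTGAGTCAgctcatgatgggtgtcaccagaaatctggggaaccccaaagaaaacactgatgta
Tiparp 58.0 kb downstream: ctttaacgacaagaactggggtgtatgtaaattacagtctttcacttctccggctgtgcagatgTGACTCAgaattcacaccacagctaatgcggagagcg
Cyp1a1 6.93 kb downstream: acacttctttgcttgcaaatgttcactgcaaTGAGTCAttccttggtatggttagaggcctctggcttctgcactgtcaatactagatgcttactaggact
Ahr 264 kb upstream: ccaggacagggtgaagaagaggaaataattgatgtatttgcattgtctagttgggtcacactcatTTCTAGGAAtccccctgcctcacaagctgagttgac
Ahr 106 kb upstream: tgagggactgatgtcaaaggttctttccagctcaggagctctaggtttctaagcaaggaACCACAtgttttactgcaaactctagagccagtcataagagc

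The label of the cells was checked at the promoters of marker genes, a promoter being open when every replicate has a region within 1 kb of an annotated transcript start. All 4 Th17 markers (Il17a, Il17f, Il23r and Ccr6) and all 3 T cell markers (Cd3e, Cd4 and Zap70) were open, against 64.1% of protein-coding promoters in the genome. None of 3 B cell, 3 CD8 or NK and 3 hepatocyte markers was open in every replicate, but the NK marker Klrb1c and the hepatocyte marker Apoa1 had a promoter region in 3 of 4 replicates. The merged region at Apoa1 had a mean percentile of 72.7 ± 5.49, above the highest mean of the Th17 and T cell markers, 60.7 ± 5.01 at Il23r. The lowest means of those markers were 9.11 ± 2.64 at Il17a and 11.2 ± 2.68 at Cd4. A marker with more than 1 promoter region was given the percentile of its strongest. Of the myeloid markers, 1 of 3 was open (Cd14, not Csf1r or Lyz2). The part of other cell types in the results below was not tested. Read counts are not part of the peak lists; depth is therefore unknown, and precision is the spread between replicates. Signal is the deposited enrichment per region and is not normalised between replicates. Each region was therefore given its signal percentile among the 68696 shared regions of the same replicate, where 100 is the strongest. In bulk chromatin, fewer cells with an open site and weaker opening in each cell cannot be told apart.

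Ahr lay in a dense field of open regions. Its window, chr12:35086925-35925620, spans 839 kb between a start inside Snx13, a sorting nexin gene, and the start of Agr3, a disulfide isomerase family gene. It held 64, 67, 64 and 60 regions in replicates 1 to 4 (63.8 ± 2.87, SD, n = 4). Of 75 merged regions 54 were shared, 7 were in 3 replicates, 4 in 2 and 10 in 1. That is 6.44 shared regions per 100 kb, or 2.55 times the 2.52 per 100 kb of the genome. Open regions covered 5.17% ± 0.157 of the window (SD, n = 4).

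**Figure D1:**
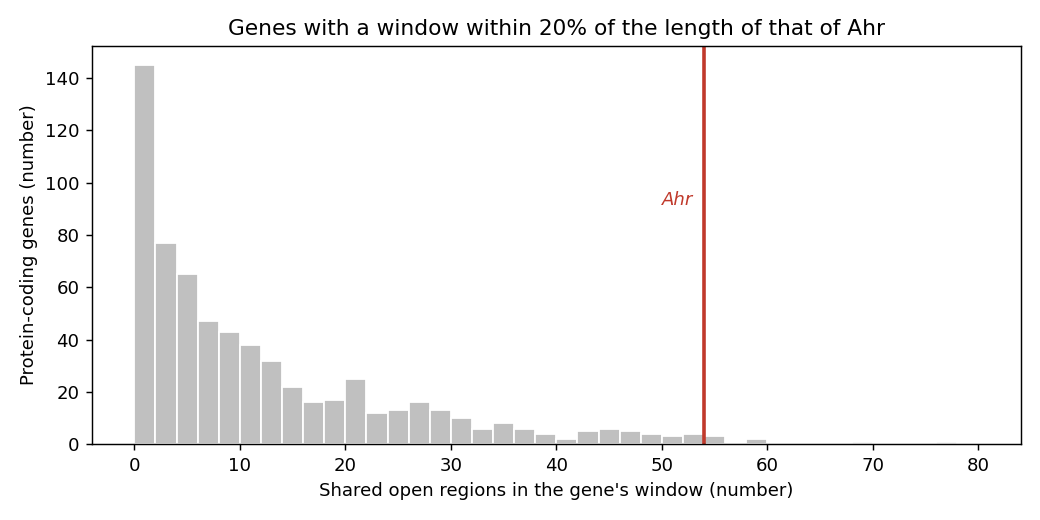
Number of shared open regions (x axis) in the window of each protein-coding gene whose window, drawn to the nearest other protein-coding start on both sides, has a length within 20% of that of Ahr; bars count genes and exclude Ahr, and the red line marks Ahr at 54. Most genes sit at the left, with a median of 7.

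Among 651 other protein-coding genes whose windows, drawn by the same rule, had a length within 20% of that of Ahr, 644 held fewer shared regions (98.9%), 1 held as many and 6 held more. Their median was 7 and their range 0 to 76. Windows of neighbouring genes overlap, so these genes are not independent. The genes closest to Ahr in this count were Rnaseh2b with 54 shared regions in 847 kb, Lpin1 with 53 in 836 kb and Zfp36l1 with 55 in 843 kb; Atxn1 with 53 and Bcl2l11 with 55 tie with the last pair and differ more from Ahr in window length. The largest count was that of Foxo1, a transcription factor gene of T cell quiescence, with 76 in 890 kb; it was named after its value was seen.

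The regions were unevenly placed about Ahr. The 391 kb upstream of the gene held 35 shared regions, or 8.96 per 100 kb, whereas the 411 kb downstream held 15, or 3.65 per 100 kb. Every replicate had this difference: upstream counts were 10.2, 10.5, 10.5 and 9.73 regions per 100 kb, and downstream counts were 4.62, 4.62, 3.89 and 4.38. The gene body of 37.1 kb held 4. Only 1 of the 54 regions was a promoter region and 53 were distal, meaning over 1 kb from any protein-coding start. By nearest protein-coding start, 35 were assigned to Ahr, 10 to Snx13 and 9 to Agr3. Many upstream summits lay inside long noncoding RNA genes: 12 in Gm34047, 8 in Gm48236, 5 in 9130015A21Rik and 1 in Gm48237, some in more than one. The widest stretch without a shared region was 82.0 kb, against a median gap of 7.61 kb.

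**Figure D2:**
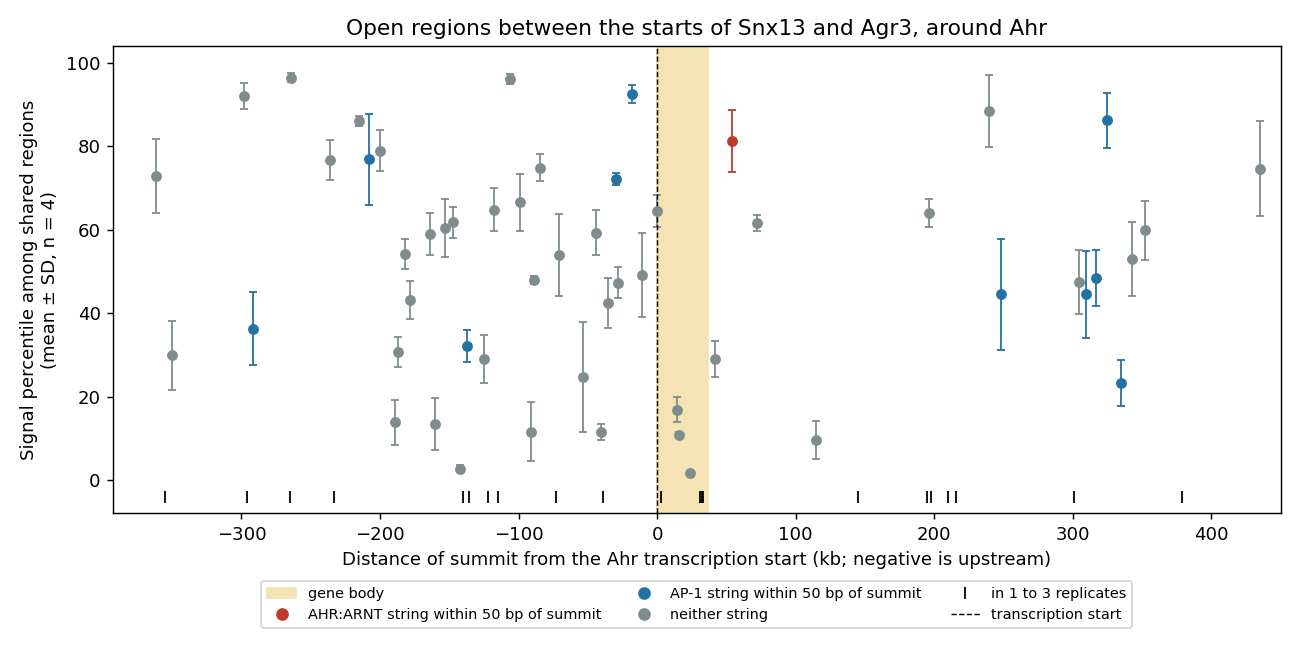
Signal percentile of each shared region (mean ± SD over 4 replicates) against the distance of its summit from the Ahr transcription start, in kb, negative being upstream; colours mark a short string near the summit, ticks below mark regions found in 1 to 3 replicates, and the shaded band is the gene body. The points above 90 all lie upstream, and the gene body holds low points apart from the one at the start.

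The region at the Ahr start, chr12:35533830-35535505, was of middling signal. Its percentiles were 66.4, 59.7, 68.5 and 62.8 (64.4 ± 3.88, SD, n = 4), with deposited signals of 9.52, 8.86, 9.44 and 8.81. The other 3 shared regions of the gene body, all intronic, ranked low, at 16.8 ± 3.00, 10.9 ± 0.692 and 1.73 ± 0.456. By signal the strongest regions lay far upstream. The intergenic region 264 kb upstream, chr12:35798981-35799793, had percentiles of 95.8, 97.5, 96.9 and 95.3 (96.4 ± 1.03). The region 106 kb upstream, chr12:35640676-35641691, in an intron of Gm34047, had 97.1, 94.5, 95.7 and 97.1 (96.1 ± 1.26). These 2 regions overlapped in their signal percentiles and by signal both lay above the Ahr start in every replicate. By −log10 q their percentiles were 87.4 ± 2.34 and 95.4 ± 1.07. The Ahr start stood at 86.5 ± 1.17 by that measure and overlapped with the region 264 kb upstream. The region described next led the window by −log10 q, at 96.7 ± 0.572. The region 18.2 kb upstream, chr12:35552719-35554012, in an intron of Gm48236, had 93.4, 89.4, 93.5 and 94.0 (92.5 ± 2.14), and its summit sequence above holds the AP-1 string in 2 places. The remaining region above 90, 298 kb upstream, averaged 92.0 ± 3.12. With 4 of 54 shared regions at a mean percentile of 90 or more, the Ahr window had 7.41%, against 9.64% of shared regions in the genome, so the density of open regions at Ahr did not come with an excess of strong ones.

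Some strong Ahr regions differed between library tags, and others little or not at all. The peak names of replicates 1 and 2 carry the tag KS134 and those of replicates 3 and 4 the tag KS136; what the tags stand for is not given. All the peak names also carry the words 72hrs, ASTARR and insert, which are not explained either; the labels give the assay as ATAC-seq. The regions 264, 106 and 200 kb upstream overlapped between the tags. Those 18.2, 215 and 298 kb upstream did not, with KS134 means of 91.4, 86.8 and 89.9 against 93.7, 85.0 and 94.2. The region 325 kb downstream had tag means of 91.2 and 81.2. The region 240 kb downstream had 93.5 and 98.0 in the KS134 replicates, and 80.6 and 81.7 in the KS136 replicates. The region 208 kb upstream likewise had 84.9 and 87.1 against 68.4 and 66.6. The region 54.1 kb downstream, chr12:35480629-35481201, went the other way, with 73.9 and 76.0 in the KS134 replicates against 89.7 and 85.2 in the KS136 replicates (81.2 ± 7.51 over all 4). It was the only shared region of the Ahr window with TNGCGTG near the summit, meaning within 50 bp of it in every replicate. Percentiles did not overlap between tags in 28 of the 54 Ahr regions, and in 51 of 106 over the 6 windows (48.1%), against 42.5% in the genome. With tag means also at least 10 points apart, the counts were 14 of 54 and 19 of 106 (17.9%), against 12.2% in the genome. Presence moved little with the tag: 4 of 155 merged regions were in both replicates of one tag and neither of the other (2.58%), against 3.90% in the genome.

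All 6 genes had an open promoter (background 64.1%, 14070 of 21938 protein-coding genes). At the main starts the order of mean percentile was Arnt, Cyp1b1, Tiparp, Ahrr, Ahr and Cyp1a1. For Cyp1a1 this is the shared region nearest the start, which ends upstream of it. The Cyp1a1 values overlapped with those of Ahr and Ahrr. The order rests on signal: by −log10 q the Ahr, Tiparp and Cyp1b1 starts ranked higher, at 86.5 ± 1.17, 93.4 ± 0.919 and 94.1 ± 2.76 (SD, n = 4). Those 3 starts lay in wide regions, of 1676, 2209 and 3005 bp, the last wider than 99.5% of shared regions.

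**Figure D3:**
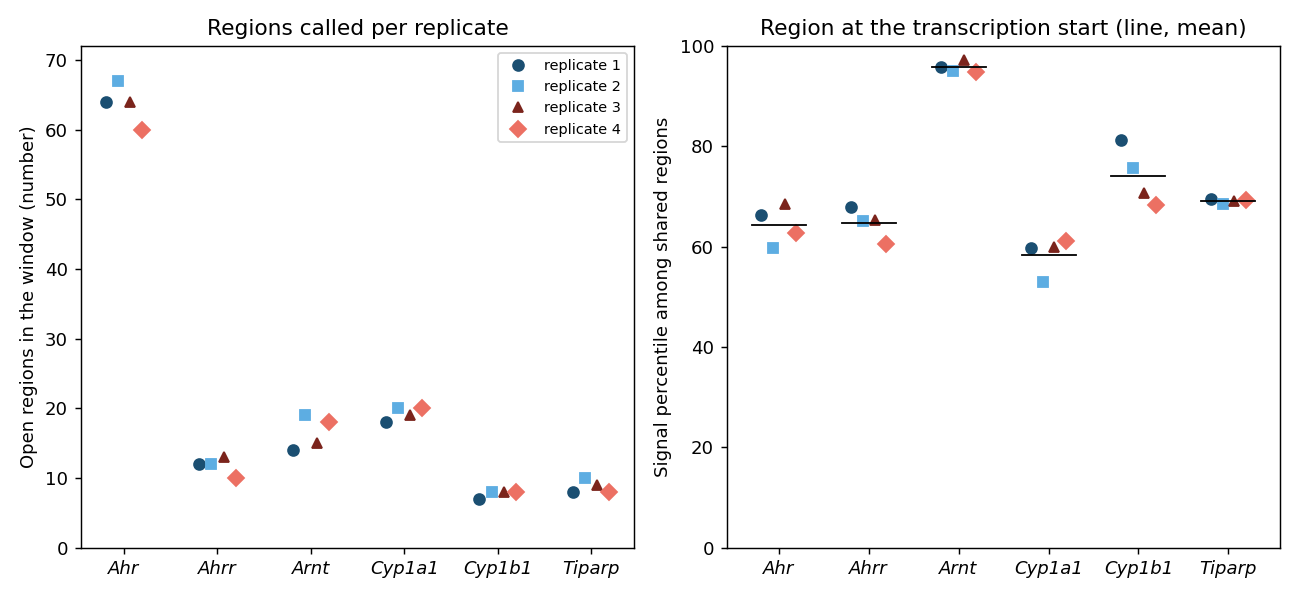
Left, number of open regions in each gene's window; right, signal percentile of the shared region at the gene's main transcription start; each symbol is 1 of 4 replicates, and the line is their mean. The Ahr window holds 60 to 67 regions, the Arnt start stands above all other starts in every replicate, and the 4 Tiparp values nearly coincide. The Cyp1a1 region is the nearest to the start and ends upstream of it.

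Arnt, the dimer partner of AHR and of the hypoxia factor HIF1A, had the strongest start. The region chr3:95433665-95435233 had percentiles of 95.9, 95.0, 97.2 and 94.9 (95.8 ± 1.07), all above every value at the other 5 starts. By −log10 q it overlapped with the Cyp1b1 start, whose percentiles were 97.0, 96.0, 91.9 and 91.7, against 95.0, 95.8, 97.0 and 96.1 at Arnt. Its window, chr3:95384388-95547240, held 14, 19, 15 and 18 regions, of which 14 were shared (8.60 per 100 kb, 3.41 times the genome). Its strongest region, chr3:95511459-95512531, 77.6 kb downstream and nearest to the cathepsin gene Ctsk, averaged 96.9 ± 0.744 and carries the AP-1 string shown above. The Ctsk promoter itself had a region in 1 replicate only, whereas that of the next cathepsin gene, Ctss, was open at 30.1 ± 2.90. An intergenic region 26.5 kb upstream averaged 89.5 ± 4.22, and the 4 shared regions with a summit inside the Arnt body had means from 43.9 to 75.9.

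Ahrr encodes the AHR repressor, which competes with AHR for ARNT. Its window, chr13:74161118-74342331, held 12, 12, 13 and 10 regions, 9 of them shared (4.97 per 100 kb, 1.97 times the genome). The region at the main start, chr13:74291814-74292928, had 67.9, 65.1, 65.4 and 60.5 (64.7 ± 3.07). These values overlap with those of the Ahr start. The region at an internal start, 32.0 kb into the gene, was stronger, at 78.6, 81.5, 83.2 and 81.0 (81.1 ± 1.93), with no overlap with the main start. By signal the strongest regions of the window belonged to other genes. The promoter of Pdcd6, a calcium-binding protein gene, averaged 94.8 ± 1.24 and that of the exocyst gene Exoc3 89.9 ± 1.72. An intronic region of the succinate dehydrogenase gene Sdha averaged 86.5 ± 4.28. The Pdcd6 promoter also led by −log10 q, at 96.5 ± 0.589. The region at the internal Ahrr start ranked at 89.1 ± 0.807 by that measure and overlapped with the Exoc3 promoter. It lay above the Sdha region, at 62.6 ± 4.06, in every replicate.

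Tiparp encodes a mono-ADP-ribosyltransferase that dampens AHR. Its window, chr3:65478410-65605518, held 8, 10, 9 and 8 regions, 8 of them shared (6.29 per 100 kb, 2.50 times the genome). The start region, chr3:65527658-65529866, had 69.5, 68.5, 69.1 and 69.2 (69.1 ± 0.438), the smallest spread of the 6 starts. Its values overlapped with those of Cyp1b1 and, barely, with those of Ahr, and not with those of Ahrr. By signal, the strongest region of all 6 windows lay 75.2 kb downstream, chr3:65603192-65604088, with 99.3, 99.3, 99.6 and 99.6 (99.4 ± 0.188). By −log10 q it ranked at 94.6 ± 0.568, below the top regions of the Ahr, Ahrr and Arnt windows in every replicate. Its mean was also below that of the top Cyp1a1 region, at 96.0 ± 1.10, but their values overlapped. A second one, 58.0 kb downstream, averaged 90.3 ± 1.60 and holds the AP-1 string. Both lay beyond the gene with Tiparp as the nearest protein-coding start.

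Cyp1a1 encodes the best known AHR-induced monooxygenase. Its window, chr9:57637928-57753824, was the densest, with 18, 20, 19 and 20 regions and 15 shared (12.9 per 100 kb, 5.13 times the genome). Many were weak by signal: the median signal percentile was 17.9, the lowest of the 6 windows, and the other 5 ranged from 49.9 to 71.6. This depends on the measure, and no median by −log10 q was taken for single windows. A region at a Csk start ranked at 52.2 ± 2.53 by −log10 q, against 7.80 ± 0.963 by signal. The region at the alternative Cyp1a1 start, given below, stayed low by −log10 q, at 6.53 ± 6.02. The window holds or touches the start regions of several other genes, and 5 of its 15 shared regions were promoter regions of some gene. The region upstream of the main start, chr9:57696063-57697518, had 59.7, 52.9, 59.9 and 61.1 (58.4 ± 3.72), and a region at an alternative start, 9.13 kb upstream, had 12.8 ± 8.97. By signal the strongest region lay 6.93 kb downstream, chr9:57704264-57705177, at 81.4 ± 3.05, and carries the AP-1 string. By −log10 q another region led, 57.0 kb upstream in an intron of the kinase gene Csk, at 96.0 ± 1.10 against 82.1 ± 1.69; it has no AP-1 string near its summit and its signal percentile was 55.3 ± 3.26. The nearest protein-coding start to the region 6.93 kb downstream is that of Edc3, an mRNA decapping gene. Cyp1a2, the neighbouring liver monooxygenase gene, had no promoter region in any of the 4 replicates.

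Cyp1b1 encodes a related monooxygenase known mainly from tissues outside the liver. Its window, chr17:79651537-79765061, held 7, 8, 8 and 8 regions, 6 of them shared (5.29 per 100 kb, 2.10 times the genome). The start region, chr17:79713287-79716291, had 81.3, 75.7, 70.7 and 68.3 (74.0 ± 5.74), with both KS134 replicates above both KS136 replicates. By signal the strongest regions lay 40.1 kb and 24.2 kb upstream, at 93.1 ± 1.94 and 87.9 ± 1.73, and both hold the AP-1 string near the summit. By −log10 q the start region led at 94.1 ± 2.76, and the region 40.1 kb upstream ranked at 71.8 ± 3.38.

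**Figure D4:**
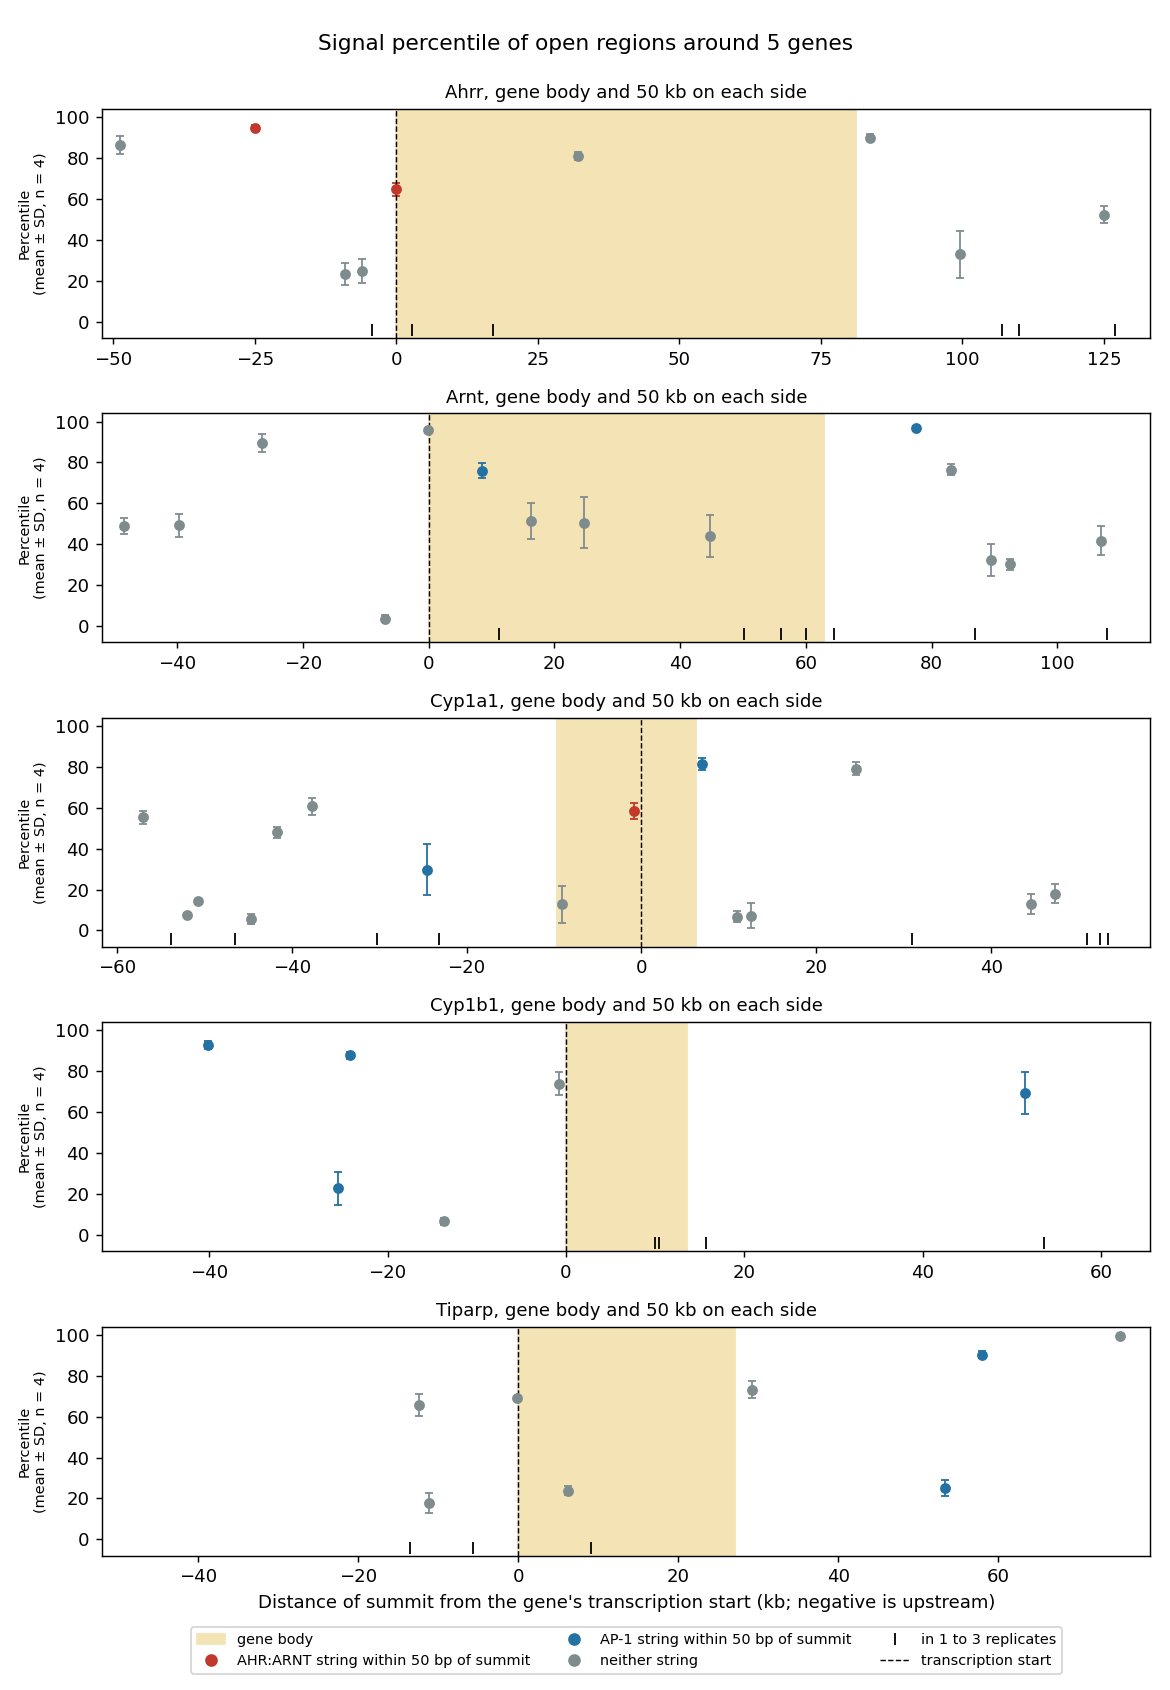
Signal percentile of each shared region (mean ± SD over 4 replicates) against the distance of its summit from the gene's main transcription start, in kb, negative being upstream, for the windows of Ahrr, Arnt, Cyp1a1, Cyp1b1 and Tiparp; colours, ticks and the shaded gene body are as drawn in the key. The Cyp1a1 window is crowded with low points, and the strongest points of Cyp1b1 and Tiparp lie outside the gene bodies.

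Over the 6 windows the median percentile was 52.9, 52.8, 53.1 and 53.8 in replicates 1 to 4 (53.2 ± 0.463, SD, n = 4), near the middle of all shared regions. A mean percentile of 90 or more was reached by 10 of 106 (9.43%), against 9.64% in the genome, so these loci held strong regions at about the background share. Open regions covered 5.90% ± 0.147 of the windows.

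The AHR:ARNT string was concentrated at promoters of these loci. TNGCGTG lay near the summit of 4 of the 106 shared regions (3.77%), against 0.739% in the genome. Of promoter regions 3 of 14 held it there (21.4%), against 1.35% of all promoter regions, namely those of Cyp1a1, Ahrr and Pdcd6. Of distal regions 1 of 92 did (1.09%), against 0.565%, the one 54.1 kb downstream of Ahr. Anywhere in the region, it was in 7 of the 14 promoter regions, against 26.9% of promoter regions in the genome, and in more than 1 copy in 5 of 14, against 5.51%. Such counts grow with the width of a region, and width was not matched. Over all 106 shared regions, 11 held the string (10.4%), against 12.6% in the genome. Per 10 kb of shared region there were 2.47 copies, against 1.45 in the genome, and 7 of these copies lie in the Cyp1a1 region described next. These counts are small, and the genes were chosen for a pathway in which this element is known.

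The region upstream of Cyp1a1 stood out by sequence, although not by signal. It holds 7 copies of TNGCGTG, centred at −1381, −1205, −1060, −983, −894, −823 and −490 bp from the main start. The summit lies 902 bp upstream, so the copy at −894 bp is 8 bp from it, and the stretch printed above shows that copy and those at −983 and −823 bp. No other shared region of the 68696 holds as many (0.00146% is this region alone), and 1 region holds 6 and 5 regions hold 5; the threshold was taken from the region's own count, so this is a description. At the Ahrr start the copies lie at −370 and −26 bp, the second inside the promoter printed above. Cyp1b1 has 2 adjacent copies at −870 and −851 bp, Tiparp 1 at −421 bp, Ahr 1 at 251 bp downstream, and the Arnt start region none. The RefSeq promoters of 300 bases, of which 5 of the 6 genes matched (Ahr did not), held TNGCGTG only for Ahrr, against 5.07% of 32851 promoters. Each of the 5 holds GCGTG, 3 times in Ahrr and 1 time in each other, against 32.4% of promoters.

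**Figure D5:**
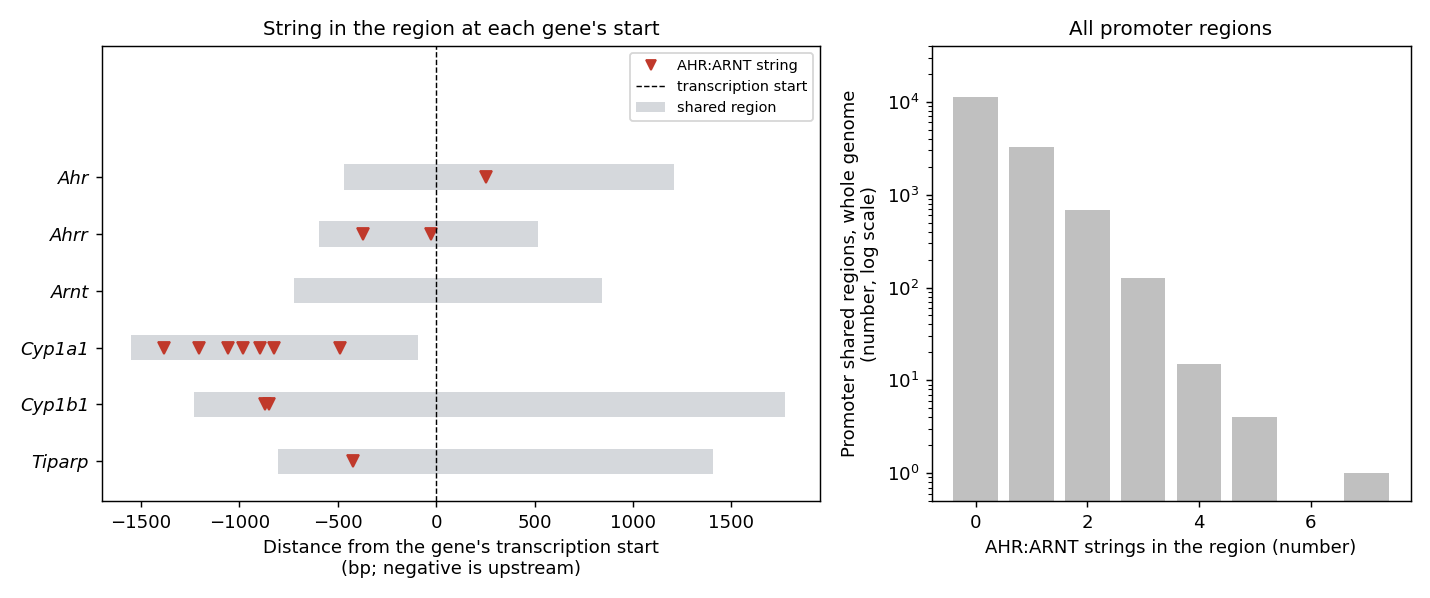
Left, extent of the shared region at each gene's main start (bars) and the centre of each AHR:ARNT string in it (triangles), in bp from the start, negative being upstream; right, number of promoter shared regions of the whole genome (log axis) by the number of such strings they hold. Cyp1a1 has 7 strings upstream of its start and is the single region at the right end. The Cyp1a1 region ends upstream of the start. Arnt has no string.

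The AP-1 string was present at distal summits at about the genome share. TGANTCA lay near the summit of 20 of the 106 shared regions (18.9%), against 15.0% in the genome. All 20 were among the 92 distal regions (21.7%), against 18.2% of distal regions in the genome. None of the 14 promoter regions held it, against 4.02%. In the Ahr window 10 of 53 distal regions held it (18.9%). The core GCGTG was near 3 of 92 distal summits (3.26%), against 3.84%. ACGTG, the core of HIF and E-box elements, was near 6 of 92 (6.52%), against 3.32%. TGTGGT (RUNX) was near 6 (6.52%), against 8.87%, and GGAAGT (ETS) near 4 (4.35%), against 5.66%. TTCNNNGAA (STAT) was near 1 (1.09%), against 2.03%, the CTCF string near 1, against 4.40%, and the NF-kB string near 0, against 0.814%. Strings were sought on both strands.

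Beyond the 6 genes, 24 of 30 listed pathway genes had an open promoter in all 4 replicates (80.0%), against the same background of 64.1%. Percentiles here and in the next paragraph are of the strongest shared region within 1 kb of any annotated start. They are not limited to the main start, unlike those of the 6 genes, and are not set against them. All 4 chaperone and complex genes were open, among them the chaperone genes Hsp90aa1 at 76.7 ± 2.39 and Hsp90ab1 at 46.9 ± 4.56. All 6 partners and relatives were open, from Epas1, the HIF2 alpha gene, at 84.4 ± 2.85 to Sim1, a gene of hypothalamic development, at 47.5 ± 1.05. All 4 coactivator genes were open, with Crebbp at 82.1 ± 0.972 and Ncoa1 at 56.8 ± 1.75. Of 9 further target genes 5 were open, a share of 55.6% that lies below the background of 64.1%. They were Ugt1a6a at 89.7 ± 1.93, the quinone reductase gene Nqo1 at 77.6 ± 2.82 and Nfe2l2 at 66.6 ± 2.97. Aldh3a1 at 60.4 ± 3.94 and Lpcat2 at 11.6 ± 4.38 were the others. Cyp1a2, Ugt1a2 and Gsta1, all liver detoxification genes, had no promoter region in any replicate, and Serpinb2 had one in 1 replicate.

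Of 7 genes for enzymes of tryptophan metabolism, a source of AHR ligands, 5 were open, a share of 71.4% near the 64.1% of all promoters. Kmo, the kynurenine monooxygenase gene, had 89.5 ± 3.15 and Il4i1, the amino acid oxidase gene, 79.7 ± 2.45. Tph1 had 64.1 ± 5.17, Ido2 51.4 ± 2.71 and Ido1 46.5 ± 8.50. Tdo2, the liver tryptophan dioxygenase gene, had no region, and Kynu had one in 1 replicate. Of 13 other protein-coding genes with a start in or at the edge of a window, 9 were open (69.2%, likewise near that share), and Agr3, Cyp1a2 and 4930558C23Rik had no promoter region while Ctsk had one in 1 replicate.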

How the data were processed

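Per the labels, 4 ATAC-seq samples of mouse Th17 cells refer to the mm10 build and each has its own peak list, with aligner and peak caller not given in the sources used here. Per the deposited peak names, reads were masked, deduplicated and sorted. Each region in the deposited lists has a signal (enrichment), a −log10 p, a −log10 q and a display score made by the authors; the lists stop at a −log10 q of about 1.00 to 1.01. The score was not used. Depth is unknown.

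Over replicates, regions of chromosomes 1 to 19, X and Y were merged at an overlap of 1 bp or more. Signal, and as an alternative −log10 q, was ranked within each replicate, and values are mean ± SD over 4 replicates. Promoters were 1 kb around any transcript start of a protein-coding gene in GENCODE M21. Strings were sought within 50 bp of the summit on both strands in every replicate. With a single group no comparison between conditions exists, and 4 replicates cannot give a two-sided exact sign-flip p below 0.125, so no p is printed. The members, gene lists and strings were chosen with earlier results of these data known. Named genes are the 6 members, protein-coding genes with a start in a window, the pathway list and the 3 genes most like Ahr in count; named regions are the one nearest each gene's start, the 3 strongest per gene (10 for Ahr) and those with TNGCGTG near the summit. Regions in the Arnt and Ahr bodies, at the alternative starts of Ahrr and Cyp1a1 and in Csk, and the genes Foxo1, Atxn1 and Bcl2l11, were added after their values were seen. Of 21 other settings tried, 2 were added after seeing the data. The merging, ranking and string search were tested on simulated data. Python 3.11.15, numpy 2.4.6, scipy 1.17.1 and pysam 0.24.0 were used.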

Additional observations from a re-analysis of the deposited data

Results flagged for a closer look

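In 37 sets of 4 replicate values, 3 had 1 replicate far from the others by Dixon's test; chance gives about 1 in 20. The Cyp1b1 window held 7 regions in replicate 1 and 8 in each other replicate; with 3 tied counts any gap passes this test by construction, so it carries no information. The region 18.2 kb upstream of Ahr had a percentile of 89.4 in replicate 2, against 93.4, 93.5 and 94.0 in the others. The region upstream of Cyp1a1 had 52.9 in replicate 2, against 59.7, 59.9 and 61.1. Depth per replicate is unknown, and its part was not tested.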

How the results depend on the processing

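Leaving out 1 replicate at a time gave 107 to 111 shared regions over the 6 windows (106 with all 4), 54 to 57 in the Ahr window, 21 to 23 with TGANTCA and 4 to 5 with TNGCGTG near a summit, and a median percentile of 53.0 to 54.2. Replicates 1 and 2 alone, or 3 and 4 alone, gave 114 and 114 shared regions. All 6 promoters were open under every setting in which they were recomputed, and the other pathway genes with an open promoter numbered 23 to 25. Over all settings the median percentile was 50.1 to 54.8, the lowest with a −log10 q of at least 10. With the strongest 50000 regions of each replicate, 68 regions were shared and 13 held TGANTCA; the median over the 6 windows of the strongest region's percentile was 93.0, against 95.6. With 10 kb around the 5 other genes TGANTCA was in 12. String counts varied with the distance allowed from the summit. Within 25 bp TNGCGTG was in 2 and TGANTCA in 6. Within 100 bp TGANTCA was in 36, while TNGCGTG stayed at 4. Genome shares are given for 50 bp only. An Ahr window drawn to whole gene models, added after seeing the data, held 61 shared regions. No paired analysis was possible because there is only 1 group. The summits' positions vary between replicates, regions are not counts, and depth is unknown.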
